A study of Mus musculus with 9 samples.

Results

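The genes described here are 34 genes of glucose uptake, glycolysis, lactate formation and export, the polyol pathway, galactose use and hypoxia control, out of 47729 genes in the tables of newborn mouse lenses. They were taken by symbol from a list of known pathway genes. One of them, the processed pseudogene *Pgam1-ps2*, was on the list because of its low level in *Le-Cre* lenses, so its values against *Le-Cre* are given as a description with no test and the counts of genes below are over the other 33. RNA-Seq was performed on whole lenses from newborn mice (postnatal day 0, P0) of 3 lines on the *FVB/N* background, namely non-transgenic *FVB/N* and mice hemizygous for either *P0-3.9GFPCre* or *Le-Cre*. For every line there were 3 pools, each made of 6 lenses taken from 3 mice. Both transgenes express CRE recombinase from a fragment of the *Pax6* P0 promoter (a promoter name unrelated to the age) that is active in the early lens, with GFP made beside CRE in *Le-Cre* and fused to CRE in *P0-3.9GFPCre*, and no floxed target gene was named for either line. The comparison asks whether the presence of a CRE transgene alone goes with altered gene expression in the lens.

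The lens has no blood vessels of its own in the adult and sits in fluid with little oxygen, so most of its ATP comes from glucose through glycolysis, with lactate as the end product. The polyol pathway is a side branch in which aldose reductase turns glucose into sorbitol and sorbitol dehydrogenase turns sorbitol into fructose. The lens is known for damage through this branch and through galactose, because sugar alcohols made there leave the cells slowly and draw in water, and defects of galactose enzymes cause cataract in infancy.

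Total expected counts (the estimated number of reads per gene, summed) ranged from 20670968 to 28098059 per pool, and crystallin genes took 39.1 to 43.0% of them. The 34 genes together took 0.665 to 0.853%. The lens label was borne out by the 12 lens markers, whose summed level was between 267631 and 315875 TPM (a level scaled for gene length and library size). Skeletal muscle markers summed to 1.56 to 6.16 TPM, retina markers to 0.59 to 3.77 TPM and macrophage markers to 0.43 to 1.81 TPM, and the 4 corneal and surface epithelial markers to at most 0.26 TPM, with *Krt12* and *Krt14* at 0 in every pool. Vessel markers summed to 19.6 to 39.7 TPM and pigmented epithelium markers to 0.75 to 6.89 TPM. Blood markers summed to 85.2 to 262.5 TPM with overlapping ranges in the 3 lines. The summed fibroblast and mesenchyme markers were 33.1 to 34.8 TPM in *FVB/N*, 28.6 to 32.6 TPM in *P0-3.9GFPCre* and 26.3 to 28.9 TPM in *Le-Cre*. Of these 5 markers 3 exceeded a mean of 1 TPM, and most of the sum was *Pdgfra*, which lens epithelium also expresses. The summed level of 4 Y-linked genes was 126 to 193 CPM (counts scaled to the size of the normalized library) in *FVB/N*, 1.66 to 135 CPM in *P0-3.9GFPCre* and 0.633 to 71.8 CPM in *Le-Cre*. The Y-linked ranges of *FVB/N* and *Le-Cre* did not overlap. A difference in the sex of the pooled mice and a difference of line therefore cannot be told apart in that comparison. In *P0-3.9GFPCre*, replicates 1 and 3 (53.8 and 1.66 CPM) lay below every *FVB/N* pool, and replicate 2 (135 CPM) lay within their range. A difference of sex is thus partly mixed with that of line in the comparison of *P0-3.9GFPCre* with *FVB/N* as well. The part of the fibroblast marker shift in the differences between lines was not tested. When the Y-linked share entered the edgeR fit of *Le-Cre* against *FVB/N*, 11 of the 33 genes were lower at an unadjusted p under 0.05, of which 8 were also lower at that level without it. In that fit the smallest adjusted p among the 33 was 0.951, and 0 of all tested genes passed the cutoff used here.

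Several of the genes share sequence with copies elsewhere in the genome, and the reads were 51 bases long, so these sequences are shown first. *Pgam1* encodes the broadly expressed phosphoglycerate mutase (chr19:41911923-41918660 on GRCm38, plus strand, a protein-coding gene). *Pgam1-ps2* (chr7:27469771-27470535, minus strand) is annotated as a processed pseudogene of 765 bases, and the whole of it is identical to bases 126 to 890 of transcript *Pgam1-201*, which are exactly the coding sequence. The first 61 bases of both, with the start codon in capitals, are shown because a read inside the shared stretch cannot be assigned to either from its sequence.
Pgam1: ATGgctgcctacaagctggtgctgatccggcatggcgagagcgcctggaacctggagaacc
Pgam1-ps2: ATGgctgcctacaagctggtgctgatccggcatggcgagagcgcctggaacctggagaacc
*Gapdh* (chr6:125161715-125166467, minus strand) encodes glyceraldehyde-3-phosphate dehydrogenase, often used as a reference gene. Its copy *Gm13394* (chr2:28933610-28934609, minus strand) is 1000 bases long and aligned without gaps to bases 93 to 1092 of transcript *Gapdh-201*, all of them coding, with 1 substitution, A438C, counted from the first base of *Gapdh-201*. The lines that follow give 30 bases on each side of that substitution, which is in capitals. Within the aligned stretch of the reference, only reads that cover this base can distinguish the 2 genes.
Gapdh: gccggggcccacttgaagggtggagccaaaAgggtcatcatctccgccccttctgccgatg
Gm13394: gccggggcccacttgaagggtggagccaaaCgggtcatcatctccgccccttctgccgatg
A second copy, *Gm7336* (chr7:51746647-51747878, plus strand), held an uninterrupted run of 1090 bases identical to *Gapdh-203*. *Pgk1*, which encodes phosphoglycerate kinase (chrX:106187100-106203699, plus strand), has the copy *Pgk1-rs7* (chr12:10898986-10900240, minus strand), whose 1255 bases are all identical to *Pgk1-201*. The estimated counts of such genes depend on how the quantification divides shared reads.

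The levels of the 34 genes spanned more than 3 orders of magnitude on the TPM scale (0.13 to 1672 TPM over all pools). Of the glucose transporter genes among the 34, *Slc2a1* (GLUT1) had the higher RNA level, with 507 ± 61.5 TPM (SD, n = 3) in *FVB/N* lenses. *Slc2a3*, the neuronal transporter GLUT3, stayed at or under 0.98 TPM in all 9 pools. *Slc2a1* thus ranked 125 among all 47729 genes by mean TPM, whereas *Slc2a3* ranked 14987.

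Among the enzymes that trap and isomerise glucose, hexokinase 2 (*Hk2*, 25.9 to 42.9 TPM over the 9 pools) exceeded hexokinase 1 (*Hk1*, 5.03 to 8.90 TPM), and *Gpi1*, glucose-6-phosphate isomerase, reached 162 to 219 TPM. *Hk2* held 79.0 to 88.4% of the summed *Hk1* and *Hk2* TPM in every pool. Phosphofructokinase, the committed step, was nearly all of the liver type, with 88.5 to 91.8% of the summed TPM in *Pfkl*, 4.82 to 7.32% in the muscle type *Pfkm* and 3.06 to 5.65% in the platelet type *Pfkp*. *Pfkfb3* (11.9 to 16.4 TPM) and *Pfkfb2* (4.01 to 6.49 TPM) encode enzymes that make and remove the activator of that step.

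Aldolase, which splits fructose-1,6-bisphosphate, was shared more evenly. *Aldoa*, the muscle and general form, held 56.6 ± 2.81% (SD, n = 3) of the summed TPM in *FVB/N*, and *Aldoc*, the brain form, held 43.4 ± 2.81%. In *Le-Cre* the *Aldoa* share was 52.3 ± 3.56%, and the pools of the 2 lines overlapped. On expected counts in place of TPM the share was 57.1 to 60.2% in *Le-Cre* and 60.3 to 64.9% in *FVB/N*, which did not overlap. *Tpi1*, triosephosphate isomerase, was at 229 to 304 TPM.

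The 4 highest mean levels belonged to the steps around and after the split of the sugar. In *FVB/N* lenses the order was *Gapdh* at 1402 ± 191 TPM, then *Eno1* (enolase 1) at 776 ± 33.4 TPM, *Pkm* (pyruvate kinase) at 629 ± 51.3 TPM and *Aldoa* at 529 ± 32.7 TPM (SD, n = 3 each). The pools of neighbours among these 4 genes did not overlap. The transporter *Slc2a1* came next at a mean of 507 TPM, and its pools overlapped those of *Aldoa*. Over the whole order, 22 of 33 neighbouring pairs had overlapping *FVB/N* pools.

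Phosphoglycerate mutase RNA came from both the general and the muscle gene. *Pgam2*, the muscle form, was at 231 to 317 TPM, beside 244 to 274 TPM for *Pgam1*, although the 7 skeletal muscle markers were near 0 and *Acta1*, the main skeletal muscle actin, had a mean of 0.0111 TPM. *Pgam2* shared none of its 51-base sequences with another transcript in the annotation. *Eno3*, the muscle enolase and not one of the 34 genes, was likewise high at 181 to 247 TPM, while the neuronal enolase *Eno2* was at 6.70 to 17.3 TPM and *Pgk1* at 188 to 257 TPM.

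*Ldha*, the A type of lactate dehydrogenase, which favours lactate formation, held 93.5 to 96.9% of the summed *Ldha* and *Ldhb* TPM. *Ldhb* was at 7.65 to 14.3 TPM. Of the lactate exporters, *Slc16a3* (MCT4, typical of highly glycolytic cells) was at 22.8 to 33.5 TPM and *Slc16a1* (MCT1) at 5.68 to 10.4 TPM. Pyruvate entry into mitochondria was represented by *Pdha1*, a subunit of pyruvate dehydrogenase, at 11.5 to 15.6 TPM, and by *Pdk1*, the kinase that inactivates it, at 19.4 to 41.7 TPM.

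The RNA of the polyol enzymes was far less abundant than that of *Gapdh*, *Eno1*, *Pkm* and *Aldoa*. Some glycolytic genes lay below *Sord* and *Akr1b3*, however. In *FVB/N* the means were 18.8 TPM for *Sord*, 15.8 TPM for *Akr1b3*, 6.93 TPM for *Hk1* and 3.80 TPM for *Pfkm*. *Akr1b3*, aldose reductase, was at 12.4 to 29.0 TPM, *Sord*, sorbitol dehydrogenase, at 18.1 to 20.9 TPM and *Khk*, the kinase that takes up fructose, at 0.680 to 2.38 TPM. *Galk1*, galactokinase, was at 11.8 to 17.5 TPM and *Galt*, galactose-1-phosphate uridylyltransferase, at 1.54 to 4.98 TPM, with *Galk1* above *Galt* in every pool. *Hif1a*, the oxygen-regulated subunit of hypoxia-inducible factor, was at 66.3 to 114 TPM, and *Vegfa*, an angiogenic growth factor, at 69.4 to 86.4 TPM.

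**Figure D1:**
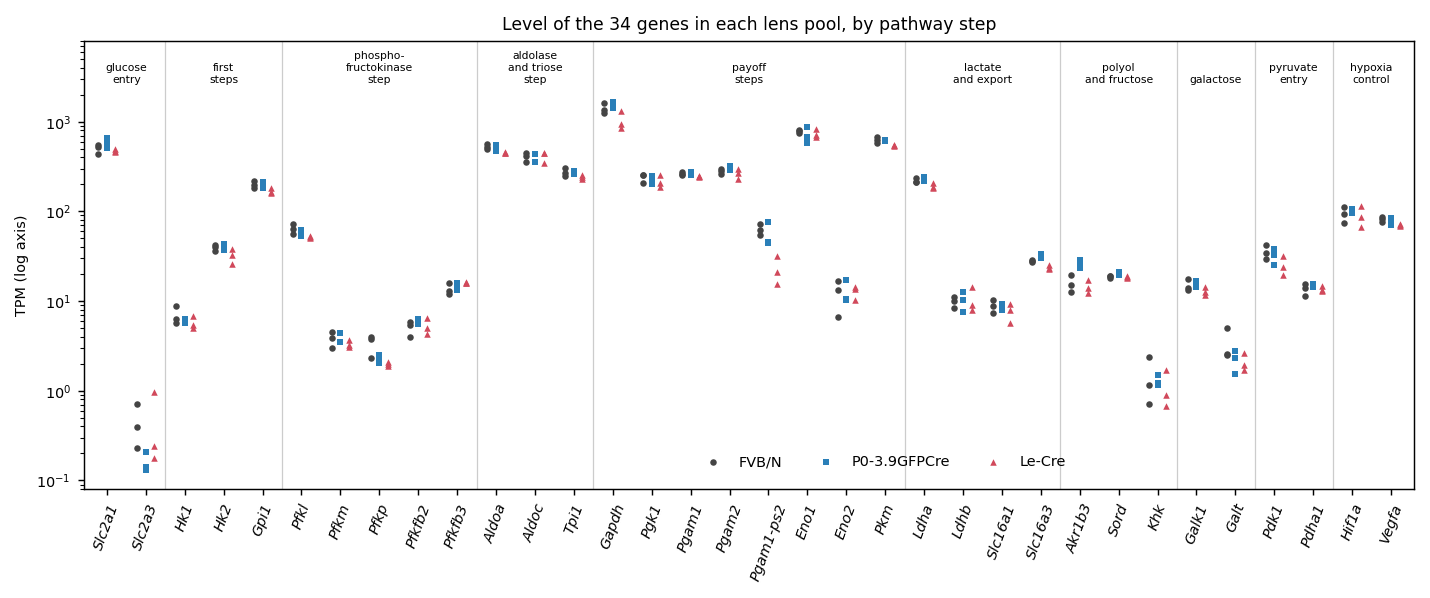
Level of each of the 34 genes in TPM (log axis) in the 9 lens pools, with 1 point per pool, coloured by line and grouped by pathway step. *Gapdh*, *Eno1*, *Pkm*, *Aldoa* and *Slc2a1* lie highest, and *Slc2a3* stays at or under 0.98 TPM.

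Relative to *FVB/N*, the glycolytic genes of *Le-Cre* lenses leaned towards lower levels, but none of the 33 genes passed the cutoff (1.5-fold or more and an adjusted p no larger than 0.05) by edgeR's quasi-likelihood test. Fold changes are given as log2 values ± standard error. Across all 15557 tested genes 10 passed it (0.0643%). DESeq2, with and without a prior on the fold changes, and limma on log2(TPM + 1) also called 0 of the 33. At an unadjusted p under 0.05, 11 of the 33 were lower and 0 higher, whereas over all tested genes 4.35% were lower and 3.6% higher at that level (7.94% in all). In 12 of the 33 the whole range of *Le-Cre* pools was under that of *FVB/N* (7.03% of all genes) and in 0 above (6.46%), and 29 of 33 fold changes were below 0 (51% of all genes). The median log2 fold change was -0.21, beside -0.0040 over all genes. The smallest adjusted p was 0.186 by edgeR. By DESeq2, 6 of the 33 (*Hk2*, *Pfkl*, *Aldoa*, *Pkm*, *Ldha* and *Pdk1*) had an adjusted p of 0.05 or less and missed the cutoff on the fold alone, with a smallest adjusted p of 0.00215 without and 0.00201 with the prior. By limma the smallest was 0.707. In such whole-lens pools fewer cells of a type and less RNA per cell cannot be told apart.

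*Pfkl*, the liver-type phosphofructokinase, had 158, 187 and 164 CPM in the *FVB/N* pools, 156, 161 and 141 CPM in the *P0-3.9GFPCre* pools and 135, 124 and 133 CPM in the *Le-Cre* pools. All 3 *Le-Cre* pools were below all pools of both other lines (log2 fold change -0.38 ± 0.078, unadjusted p = 0.000539, adjusted p = 0.186 by edgeR). *Hk2* had 119, 126 and 117 CPM in the *FVB/N* pools, 116, 117 and 109.7 CPM in the *P0-3.9GFPCre* pools and 107, 98.4 and 92.2 CPM in the *Le-Cre* pools, again with the *Le-Cre* pools below every other pool (log2 fold change -0.28 ± 0.068, unadjusted p = 0.00158, adjusted p = 0.272 by edgeR). *Ldha*, which makes lactate, had 255, 279.6 and 277 CPM in the *FVB/N* pools, 276, 268 and 250.5 CPM in the *P0-3.9GFPCre* pools and 226, 218 and 230.2 CPM in the *Le-Cre* pools. Here the *Le-Cre* pools were below the rest as well, while the *P0-3.9GFPCre* and *FVB/N* pools overlapped (log2 fold change -0.27 ± 0.062, unadjusted p = 0.00116, adjusted p = 0.240 by edgeR).

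*Aldoa* had 519, 559 and 531 CPM in the *FVB/N* pools, 459, 519 and 453 CPM in the *P0-3.9GFPCre* pools and 439, 424 and 457 CPM in the *Le-Cre* pools. The *Le-Cre* pools lay below those of *FVB/N*, and the highest *P0-3.9GFPCre* pool equalled the lowest *FVB/N* pool after rounding (log2 fold change -0.28 ± 0.067, unadjusted p = 0.00140, adjusted p = 0.252 for *Le-Cre* by edgeR). *Pkm*, which makes pyruvate, had 1424, 1502 and 1356 CPM in the *FVB/N* pools, 1275, 1379 and 1326 CPM in the *P0-3.9GFPCre* pools and 1221, 1124 and 1283 CPM in the *Le-Cre* pools. Its *Le-Cre* pools lay below the *FVB/N* pools and overlapped those of *P0-3.9GFPCre* (log2 fold change -0.24 ± 0.068, unadjusted p = 0.00497, adjusted p = 0.353 by edgeR). *Slc16a3*, the lactate exporter, had 39.2, 40.1 and 43.1 CPM in the *FVB/N* pools, 38.7, 38.0 and 36.3 CPM in the *P0-3.9GFPCre* pools and 35.0, 28.3 and 35.3 CPM in the *Le-Cre* pools. Each transgenic line was below *FVB/N*, and *Le-Cre* was the lowest (log2 fold change -0.31 ± 0.090, unadjusted p = 0.00528, adjusted p = 0.357 for *Le-Cre* by edgeR).

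*Pdk1*, which restrains pyruvate entry into mitochondria, had 115, 118 and 97.9 CPM in the *FVB/N* pools, 78.4, 95.6 and 77.9 CPM in the *P0-3.9GFPCre* pools and 85.1, 79.0 and 77.0 CPM in the *Le-Cre* pools. Both transgenic lines lay below *FVB/N* and overlapped each other (log2 fold change -0.46 ± 0.10, unadjusted p = 0.000623, adjusted p = 0.198 for *Le-Cre* by edgeR). *Tpi1* (log2 fold change -0.20), *Gpi1* (-0.17) and *Vegfa* (-0.26) had unadjusted p values between 0.0209 and 0.0264. Between *Le-Cre* and *FVB/N* the *Tpi1* pools overlapped, whereas those of *Gpi1* and *Vegfa* did not. *Gapdh*, the remaining gene of the 11, is treated with its copies below.

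The other 22 genes had log2 fold changes from -0.77 to 0.087 in *Le-Cre*, each with an unadjusted p over 0.05. *Hk1*, *Pfkm* and *Pfkp* had log2 fold changes of -0.22, -0.21 and -0.30 in *Le-Cre*. *Pfkfb2*, *Pfkfb3* and *Ldhb* had 0.072, 0.080 and 0.087. *Aldoc*, the second aldolase, had a log2 fold change of -0.042 ± 0.090 (unadjusted p = 0.651), and *Slc2a1* one of -0.076 ± 0.11 (unadjusted p = 0.507). *Pgam2*, *Pdha1*, *Hif1a* and *Eno2* were at -0.12, -0.036, -0.026 and -0.058, each within 2 standard errors of 0. *Slc2a3* (-0.77) and *Slc16a1* (-0.24) had wide or moderate errors (standard errors 0.37 and 0.15).

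**Figure D2:**
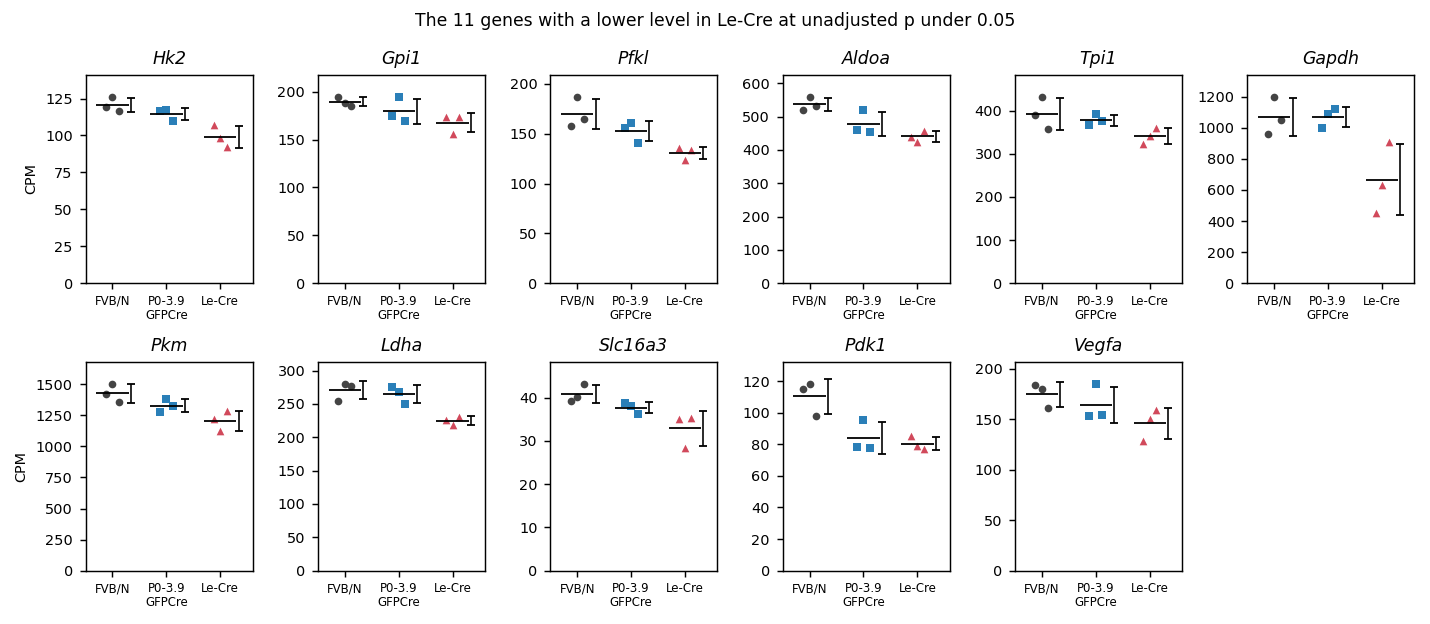
Normalized level in CPM (y axis from 0) of the 11 genes that were lower in *Le-Cre* than in *FVB/N* at an unadjusted p under 0.05, with 1 point per pool, the mean as a line and the SD as a bar beside it. In 10 of the 11, with *Tpi1* as the exception, the *Le-Cre* points lie under all *FVB/N* points.

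In *P0-3.9GFPCre* lenses 0 of the 33 genes passed the cutoff by edgeR, as did 0 of all 15557 tested genes (0%). DESeq2 with and without a prior and limma called 0 of the 33 as well, although 1 gene, *Pdk1*, had an adjusted p of 0.0247 by DESeq2 without and 0.0240 with the prior and missed the cutoff on the fold alone. This comparison uses the same *FVB/N* pools as that of *Le-Cre*, so the 2 sets of values are not independent. At an unadjusted p under 0.05, 3 genes were lower and 1 higher (3.41% of all genes in each direction, 6.81% in all), and 23 of 33 fold changes were below 0 (50% of all genes). The median log2 fold change was -0.076, beside 2.3e-05 over all genes. With limma on log2(TPM + 1) it was 0.013, beside 0.052 over all genes, and 13 of 33 were below 0.

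The 3 lower genes in *P0-3.9GFPCre* were *Pdk1* (log2 fold change -0.40 ± 0.10, unadjusted p = 0.00182, adjusted p = 0.590), *Aldoa*, with a log2 fold change of -0.17 ± 0.067 (unadjusted p = 0.0286), and *Pfkp*, with -0.33 ± 0.15 (unadjusted p = 0.0459), all by edgeR. Every *P0-3.9GFPCre* pool was below every *FVB/N* pool in 4 genes (*Slc2a3*, *Aldoa*, *Slc16a3* and *Pdk1*) and above in 2 (*Akr1b3* and *Sord*), beside 5.94% and 6.02% of all genes. The *Pdk1* log2 fold change between the transgenic lines was -0.062 ± 0.10 (unadjusted p = 0.533), and their pools overlapped. For *Pfkl*, *Hk2* and *Ldha* the fold changes in *P0-3.9GFPCre* were -0.15, -0.079 and -0.030.

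The test of the difference between the 2 transgenic lines gave 0 of 33 genes past the cutoff by edgeR, DESeq2 and limma. Over all tested genes edgeR called 0 (0%), DESeq2 called 38 without and 4 with the prior, and limma called 1. At an unadjusted p under 0.05, 6 genes were lower in *Le-Cre* than in *P0-3.9GFPCre* and 0 higher (4.25% lower, 3.63% higher and 7.88% in all among the tested genes). They were *Ldha* (-0.24), *Gapdh* (-0.68), *Hk2* (-0.20), *Pfkl* (-0.22), *Akr1b3* (-0.32) and *Slc2a1* (-0.27), with an adjusted p of 0.393 or more. Summed with their copies, *Gapdh* had -0.062 ± 0.10 (unadjusted p = 0.548, adjusted p = 0.925) and *Akr1b3* turned to 0.19 ± 0.10 (unadjusted p = 0.0936, adjusted p = 0.707) by edgeR. The median log2 fold change was -0.11, and in 10 of 33 genes every *Le-Cre* pool was below every *P0-3.9GFPCre* pool and in 0 above (7.37% and 6.74% of all genes). *Slc2a1*, which had 1108, 1011 and 909.8 CPM in the *FVB/N* pools, 956, 1329 and 1175 CPM in the *P0-3.9GFPCre* pools and 924, 943 and 1006 CPM in the *Le-Cre* pools, was highest in *P0-3.9GFPCre* replicates 2 and 3, and its pools overlapped in every comparison.

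**Figure D3:**
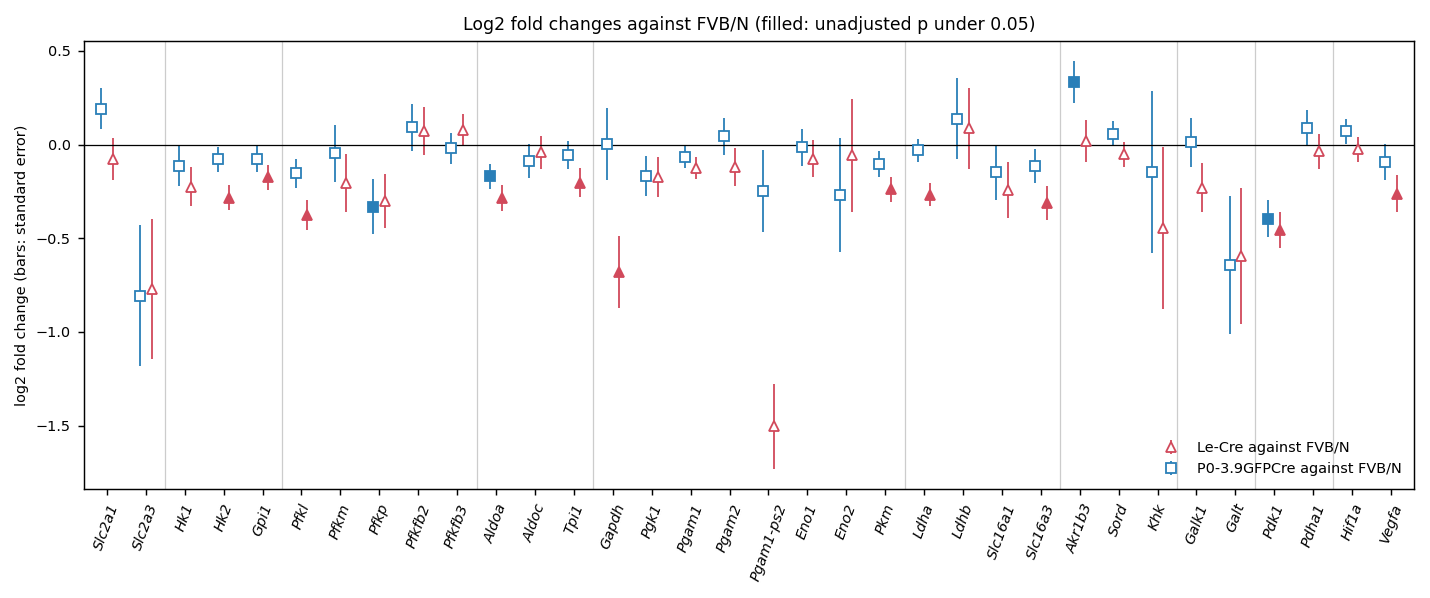
Log2 fold change against *FVB/N* for the 34 genes, in pathway order, with the standard error as a bar, for *Le-Cre* (triangles) and *P0-3.9GFPCre* (squares). Filled symbols have an unadjusted p under 0.05: 11 genes in *Le-Cre*, all below 0, and 4 in *P0-3.9GFPCre*. *Pgam1-ps2* is drawn open because it was chosen for this value.

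*Gapdh* had the lowest log2 fold change of the 11 genes that were lower in *Le-Cre*. It had 957, 1198 and 1047 CPM in the *FVB/N* pools, 999, 1085 and 1122 CPM in the *P0-3.9GFPCre* pools and 454, 634 and 907 CPM in the *Le-Cre* pools. Every *Le-Cre* pool lay below every pool of the other lines, with the widest spread among the *Le-Cre* pools (log2 fold change -0.68 ± 0.19, unadjusted p = 0.00453, adjusted p = 0.345 by edgeR). Without the filter on low counts *Gapdh* was the only one of the 33 past the cutoff, in *Le-Cre* against both other lines (adjusted p = 0.000174 against *FVB/N* by edgeR). The fold change was -0.47 without *Le-Cre* replicate 1 and -0.97 without *Le-Cre* replicate 3.

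The copies held a larger share of the reads in *Le-Cre*. *Gapdh* had 82 copies in the annotation, defined as gene models with at least 10% of their 51-base sequences in the gene. *Gm7336* held 385, 184 and 490.4 CPM in the *FVB/N* pools, 228, 419 and 192 CPM in the *P0-3.9GFPCre* pools and 781, 383 and 533 CPM in the *Le-Cre* pools. *Gm13394* held 421, 326 and 154 CPM in the *FVB/N* pools, 299, 341 and 282 CPM in the *P0-3.9GFPCre* pools and 436, 433 and 387 CPM in the *Le-Cre* pools. *Gm13394* was higher in each *Le-Cre* pool than in each *P0-3.9GFPCre* pool, and both copies overlapped between *Le-Cre* and *FVB/N*. *Gapdh* itself took 50.3 to 64.4% of the summed counts in *FVB/N*, 53.8 to 63.1% in *P0-3.9GFPCre* and 26.4 to 45.7% in *Le-Cre*. The sum of *Gapdh* and its copies was 1904, 1859.8 and 1938 CPM in the *FVB/N* pools, 1657, 2018 and 1777 CPM in the *P0-3.9GFPCre* pools and 1722, 1509 and 1988 CPM in the *Le-Cre* pools. The sums of the 3 lines overlapped, and the log2 fold change of the sum was -0.13 ± 0.10 (unadjusted p = 0.233, adjusted p = 0.821) for *Le-Cre* and -0.064 ± 0.10 (unadjusted p = 0.534, adjusted p = 0.927) for *P0-3.9GFPCre* by edgeR. Whether the low *Gapdh* value in *Le-Cre* reflects the transcript or the division of shared reads was not tested. Within a pool, the posterior SD of the *Gapdh* count given in the tables was 1.28 to 2.61% of its mean. That SD does not describe how the division among copies varied between pools. The copies *Gm10359* and *Gm12671*, whose 51-base sequences all occur in *Gapdh*, each held 67.9 CPM in *FVB/N* replicate 3 and 0 CPM in every other pool.

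*Pgk1*, phosphoglycerate kinase, had 428, 420.1 and 358 CPM in the *FVB/N* pools, 320.2, 407 and 347 CPM in the *P0-3.9GFPCre* pools and 345, 401 and 324 CPM in the *Le-Cre* pools, and all lines overlapped. Summed with *Pgk1-rs7* it had 809, 843 and 806 CPM in the *FVB/N* pools, 675, 731 and 684 CPM in the *P0-3.9GFPCre* pools and 745, 689 and 749 CPM in the *Le-Cre* pools. Both transgenic lines lay below *FVB/N* and overlapped each other, with a log2 fold change of -0.17 ± 0.060 (unadjusted p = 0.0159, adjusted p = 0.504) in *Le-Cre* and -0.23 ± 0.060 (unadjusted p = 0.00242, adjusted p = 0.587) in *P0-3.9GFPCre* by edgeR. *Pgk1* held 43.2 to 58.2% of the sum over the 9 pools.

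*Eno1* held 47.9 to 70.4% of its sum with copies, of which *Eno1b* and *Gm4735* had most of the rest. *Eno1* alone had log2 fold changes of -0.075 ± 0.10 (unadjusted p = 0.468) in *Le-Cre* and -0.015 ± 0.10 (unadjusted p = 0.883) in *P0-3.9GFPCre*, and the sum had -0.092 ± 0.066 (unadjusted p = 0.188, adjusted p = 0.800) and -0.16 ± 0.066 (unadjusted p = 0.0364, adjusted p = 0.687) by edgeR. *Pgam1* alone had 432, 453 and 458 CPM in the *FVB/N* pools, 416, 446 and 421 CPM in the *P0-3.9GFPCre* pools and 419, 389 and 422 CPM in the *Le-Cre* pools. The *Le-Cre* pools were below the *FVB/N* pools (log2 fold change -0.13 ± 0.059, unadjusted p = 0.0544, adjusted p = 0.647 by edgeR).

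*Pgam1-ps2*, the gene chosen for its value, had 41.5, 47.9 and 38.2 CPM in the *FVB/N* pools, 47.7, 30.2 and 29.3 CPM in the *P0-3.9GFPCre* pools and 14.0, 20.0 and 10.8 CPM in the *Le-Cre* pools. The *Le-Cre* pools were below all others, with a log2 fold change of -1.50 against *FVB/N*, and it took 2.50 to 4.90% of the *Pgam1* sum in *Le-Cre* against 7.69 to 9.56% in *FVB/N*. Its posterior SD was 7.17 to 29.7% of the mean count, the largest such range among the 34 genes. In *P0-3.9GFPCre*, against the same *FVB/N* pools, the log2 fold change was -0.25.

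**Figure D4:**
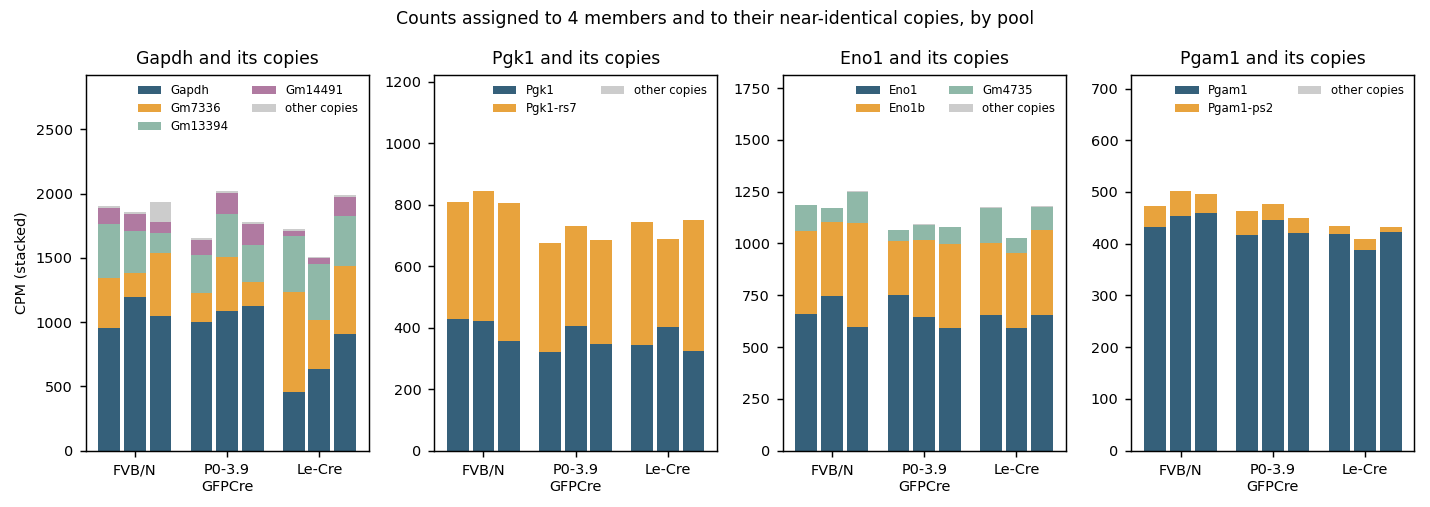
Normalized counts (CPM, stacked bars from 0) assigned to *Gapdh*, *Pgk1*, *Eno1* and *Pgam1* and to their copies in each pool, in replicate order within a line. The *Gapdh* segment is shortest in *Le-Cre* while the full height of the bars overlaps between lines, and the full *Pgk1* bars are lower in both transgenic lines than in *FVB/N*.

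Summed over all 34 genes, the level was 5748 to 6762 TPM in *FVB/N*, 6152 to 6731 TPM in *P0-3.9GFPCre* and 5164 to 5681 TPM in *Le-Cre*, so the *Le-Cre* pools lay below all others. Without *Gapdh* the sums were 4511 to 5151 TPM in *FVB/N* and 4304 to 4531 TPM in *Le-Cre*, which overlapped, and 4614 to 5059 TPM in *P0-3.9GFPCre*, above *Le-Cre*. With all copies added they were 7864 to 8887 TPM in *FVB/N*, 8248 to 9227 TPM in *P0-3.9GFPCre* and 7301 to 8243 TPM in *Le-Cre*, where again *Le-Cre* overlapped *FVB/N* and lay below *P0-3.9GFPCre*. All of these sums include *Pgam1-ps2*, which was on the list because of its low level in *Le-Cre*. Its mean was 62.5 TPM in *FVB/N*, so part of the gap between *Le-Cre* and *FVB/N* was built in by that choice. These sums are a description and were given no test.

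In the polyol pathway, *Akr1b3* was the gene with a higher level in *P0-3.9GFPCre*. It had 17.0, 21.1 and 21.4 CPM in the *FVB/N* pools, 27.3, 24.2 and 23.4 CPM in the *P0-3.9GFPCre* pools and 17.7, 21.4 and 21.1 CPM in the *Le-Cre* pools. All *P0-3.9GFPCre* pools were above all others (log2 fold change 0.33 ± 0.11, unadjusted p = 0.0126, adjusted p = 0.641 by edgeR), and the *Le-Cre* and *FVB/N* pools overlapped (0.018). The difference did not hold for the sum with its copies, of which *Gm6644* held the most. That sum had 52.8, 42.7 and 54.1 CPM in the *FVB/N* pools, 48.5, 43.7 and 51.3 CPM in the *P0-3.9GFPCre* pools and 50.0, 58.9 and 54.4 CPM in the *Le-Cre* pools. Its log2 fold change was -0.058 ± 0.10 (unadjusted p = 0.583, adjusted p = 0.937) in *P0-3.9GFPCre* by edgeR. As a share of the summed *Akr1b3* and *Sord* TPM, *Akr1b3* alone had 55.8 ± 2.62% in *P0-3.9GFPCre* and 45.4 ± 5.46% in *FVB/N* (SD, n = 3), and the pools did not overlap. *Akr1b3* held 45.6 to 56.2% of the sum in *P0-3.9GFPCre*, 32.2 to 49.3% in *FVB/N* and 35.5 to 38.7% in *Le-Cre*.

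*Sord* varied little, with 41.5, 40.7 and 41.5 CPM in the *FVB/N* pools, 42.5, 41.8 and 44.4 CPM in the *P0-3.9GFPCre* pools and 41.4, 36.7 and 41.1 CPM in the *Le-Cre* pools. The *P0-3.9GFPCre* pools were just above the others with a log2 fold change of 0.059 ± 0.068 (unadjusted p = 0.405). *Khk* had the second lowest level of the 34 genes and had -0.44 in *Le-Cre* with a standard error of 0.43. The galactose genes overlapped between all lines, with log2 fold changes in *Le-Cre* of -0.23 ± 0.13 (unadjusted p = 0.107) for *Galk1* and -0.60 ± 0.36 (unadjusted p = 0.129) for *Galt*, and *Galt* was highest in *FVB/N* replicate 3.

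The lists of neighbouring pathways, counted by edgeR with the filter on low counts, gave 0 genes past the cutoff in either comparison with *FVB/N*. Of 30 other sugar transporter and glycolysis isoenzymes, 17 passed the filter on low counts. In *Le-Cre* 1 of them was lower and 1 higher at an unadjusted p under 0.05, and in *P0-3.9GFPCre* 0 were lower and 1 higher. The shares over all tested genes, against which these and the next counts are set, were 4.35% lower and 3.6% higher in *Le-Cre* and 3.41% each way in *P0-3.9GFPCre*. Among these the most abundant was *Bsg* (basigin, the partner protein of the lactate exporters), with a mean of 275 TPM and a log2 fold change of -0.15 ± 0.062 (unadjusted p = 0.0333) in *Le-Cre*. The smallest p in both comparisons was that of *Slc2a10*, a transporter with a mean of 0.482 TPM, at 1.01 ± 0.32 (unadjusted p = 0.00995) in *Le-Cre* and 0.94 ± 0.33 (unadjusted p = 0.0148) in *P0-3.9GFPCre*. The 17 genes had a median of -0.020 for *Le-Cre*, against 0.025 for *P0-3.9GFPCre*.

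Of 13 other polyol and galactose genes 10 were tested, and 2 were lower and 0 higher in *Le-Cre* at an unadjusted p under 0.05. They were the phosphoglucomutase listed as *Pgm2* (named *Pgm1* in GENCODE M21), at -0.23 ± 0.059 (unadjusted p = 0.00273), and *Akr1b8*, a relative of aldose reductase. *Akr1b8* was singled out after its values were seen and had 0.907, 3.27 and 0.368 CPM in the *FVB/N* pools, 3.53, 3.63 and 1.88 CPM in the *P0-3.9GFPCre* pools and 0.0355, 0.273 and 0.226 CPM in the *Le-Cre* pools. Every *Le-Cre* pool was below every other pool, at low levels throughout (log2 fold change -3.08 ± 0.83, unadjusted p = 0.00347, adjusted p = 0.331 by edgeR). *Akr1b8* passed the cutoff against *FVB/N* by DESeq2 without the prior (adjusted p = 0.00613) and by edgeR without the filter on low counts (adjusted p = 0.00152). Its log2 fold change was -1.85 without *FVB/N* replicate 2 and -0.19 by DESeq2 with the prior. In *P0-3.9GFPCre* 0 of the 10 passed this level. The most abundant gene of the list, *Akr1a1* (aldehyde reductase, mean 360.3 TPM), had a log2 fold change of 0.012 ± 0.056 (unadjusted p = 0.837) in *Le-Cre*.

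All 8 genes of the pentose phosphate pathway, which makes NADPH from glucose-6-phosphate, were tested. In *Le-Cre* 1 was lower at an unadjusted p under 0.05, *Pgd* at -0.23 ± 0.085 (unadjusted p = 0.0212), and 0 were higher. In *P0-3.9GFPCre* 0 were lower and 1 was higher, *G6pdx*, the first enzyme of the pathway, at 0.22 ± 0.10 (unadjusted p = 0.0476). *Tkt*, transketolase, was the most abundant with a mean of 179 TPM and had 0.078 ± 0.067 (unadjusted p = 0.270) in *Le-Cre*. Of 11 tested genes for pyruvate entry into mitochondria, 0 were lower and 1 was higher in *Le-Cre* at that level, the pyruvate carrier subunit *Mpc2* at 0.22 ± 0.087 (unadjusted p = 0.0294). In *P0-3.9GFPCre* 0 of the 11 reached it, and the smallest p of that list was that of the kinase *Pdk3*, at 0.17 ± 0.082 (unadjusted p = 0.0653). *Pdhb*, the most abundant of the list at a mean of 54.8 TPM, had 0.033 ± 0.080 (unadjusted p = 0.685) in *Le-Cre*.

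*Pdk1*, *Ldha*, *Slc2a1* and *Vegfa* are known targets of hypoxia-inducible factor, and the list of 22 other hypoxia pathway genes, of which 21 were tested, is given here by counts against all genes. In *Le-Cre* 6 were lower and 2 higher at an unadjusted p under 0.05, and the median was -0.17, beside 4.35% and 3.6% of all genes. In *P0-3.9GFPCre* 6 were lower and 0 higher, with a median of -0.039, beside 3.41% of all genes in each direction. *Bnip3*, a mitochondrial protein induced in hypoxia, had 158, 147 and 170.2 CPM in the *FVB/N* pools, 103, 131 and 106 CPM in the *P0-3.9GFPCre* pools and 104, 109 and 106 CPM in the *Le-Cre* pools. Both transgenic lines were below *FVB/N* and overlapped each other (log2 fold change -0.58 ± 0.091, unadjusted p = 5.58e-05, adjusted p = 0.0592 for *Le-Cre* by edgeR). By DESeq2 without the prior *Bnip3* missed the cutoff on the fold alone. For *P0-3.9GFPCre* the log2 fold change of *Bnip3* was -0.48 ± 0.091 (unadjusted p = 0.000251). The histone demethylase *Kdm3a* had 113, 114 and 116 CPM in the *FVB/N* pools, 93.1, 94.2 and 89.3 CPM in the *P0-3.9GFPCre* pools and 101, 93.8 and 97.6 CPM in the *Le-Cre* pools. The pools of both lines lay below *FVB/N*, with log2 fold changes of -0.23 ± 0.056 (unadjusted p = 0.00205) and -0.31 ± 0.056 (unadjusted p = 0.000197).

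*P4ha1*, a subunit of the enzyme that hydroxylates proline in collagen, was the most abundant gene of that list with a mean of 264 TPM. It had 733, 712 and 772 CPM in the *FVB/N* pools, 589.7, 678 and 604 CPM in the *P0-3.9GFPCre* pools and 565, 597 and 617 CPM in the *Le-Cre* pools. Again both lines were below *FVB/N*, at -0.32 ± 0.069 (unadjusted p = 0.000742) and -0.25 ± 0.069 (unadjusted p = 0.00447). *Ndrg1* (-0.28 and -0.25) and *Bnip3l* (-0.16 and -0.13), named after their values were seen, also had an unadjusted p under 0.05 in both comparisons, which share the *FVB/N* pools. The sixth lower gene was *Mxi1* in *Le-Cre* (-0.25) and *Egln1* in *P0-3.9GFPCre* (-0.22). Between the transgenic lines *Mxi1* had -0.24 ± 0.090 (unadjusted p = 0.0214) and *Egln1* 0.14 ± 0.077 (unadjusted p = 0.0991). On the log2(TPM + 1) scale *Bnip3l* in *P0-3.9GFPCre* had 0.14 in place of -0.13. The 2 higher genes in *Le-Cre*, also named after their values were seen, were *P4ha2* (0.19) and *Bhlhe40* (0.31). *Vhl*, which marks the factor for destruction, its partner *Arnt* and its inhibitor *Hif1an* had 0.0095, -0.0044 and 0.078 in *Le-Cre*, beside -0.026 for *Hif1a*.

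**Figure D5:**
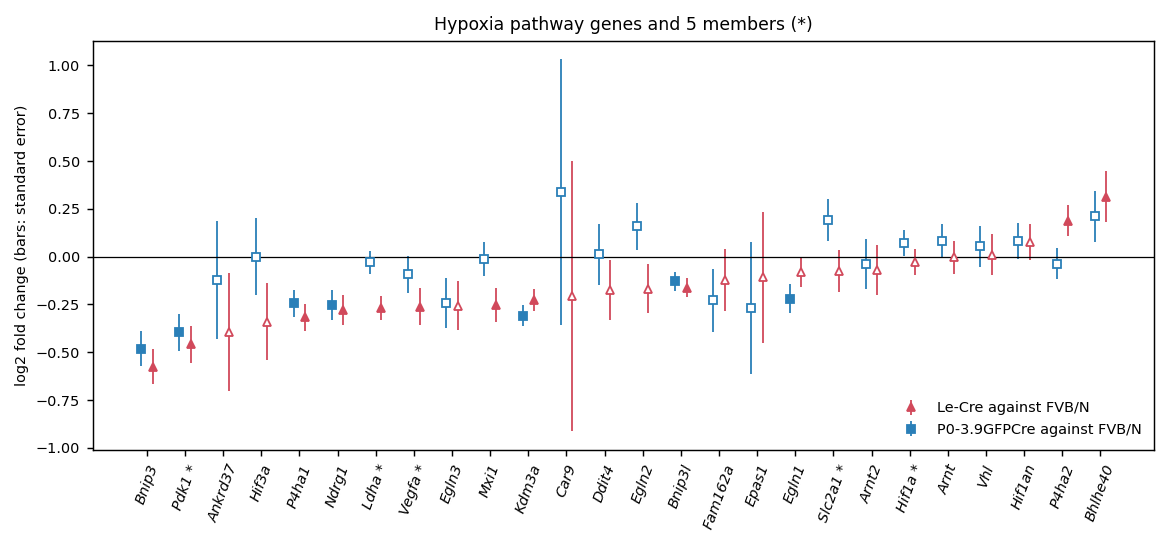
Log2 fold change against *FVB/N*, with the standard error as a bar, for the 21 tested hypoxia pathway genes and for 5 of the 34 genes (marked with an asterisk), ordered by the value in *Le-Cre*. Filled symbols have an unadjusted p under 0.05. *Bnip3* and *Pdk1* lie lowest in both lines.

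Hypoxia-inducible factor binds short DNA motifs with the core ACGTG or GCGTG, so the 250 bases before the transcription start of the genes were searched for these letters on both strands, in RefSeq promoter sequences on GRCm38.p6. The palindrome CACGTG, also the site of other factors, holds the first core on both strands and counts as 2 matches. Of the 31 genes with a promoter sequence, 26 held at least 1 match (83.9%) in any of their start sites, beside 11226 of 27025 genes of the whole table (41.5%). The share was close in both groups of genes, since 9 of the 11 that were lower in *Le-Cre* at an unadjusted p under 0.05 held one (81.8%) and 17 of the other 20 did (85%). The 27025 genes were not matched to the 31 for level, base composition or number of start sites. Whether the higher share is particular to these pathways was not tested. A match is a description of the letters and not a bound site. The windows of *Pdk1* (chr2:71872974-71873223, plus strand), *Ldha* (chr7:46845554-46845803, plus strand) and *Hk2* (chr6:82774455-82774704, minus strand) are shown from 5′ to 3′ in the direction of the gene, with the matches in capitals, because these genes were among the 11 and their windows overlapped no annotated exon. They held 1, 5 and 2 matches. The *Ldha* window lies inside the annotated gene (chr7:46841475-46855627), before a RefSeq start downstream of the annotated gene start. The windows of *Pdk1* and *Hk2* lie directly before the annotated gene start.
Pdk1: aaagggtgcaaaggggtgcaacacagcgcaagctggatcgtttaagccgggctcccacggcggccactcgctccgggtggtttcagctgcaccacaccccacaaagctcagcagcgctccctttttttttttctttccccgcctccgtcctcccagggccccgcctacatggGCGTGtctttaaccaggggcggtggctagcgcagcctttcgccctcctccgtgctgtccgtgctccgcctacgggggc
Ldha: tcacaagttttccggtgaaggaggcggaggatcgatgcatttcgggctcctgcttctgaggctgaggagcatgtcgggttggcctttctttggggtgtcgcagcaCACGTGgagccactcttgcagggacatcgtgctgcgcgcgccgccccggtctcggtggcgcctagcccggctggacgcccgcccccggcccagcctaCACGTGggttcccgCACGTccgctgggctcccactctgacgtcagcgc
Hk2: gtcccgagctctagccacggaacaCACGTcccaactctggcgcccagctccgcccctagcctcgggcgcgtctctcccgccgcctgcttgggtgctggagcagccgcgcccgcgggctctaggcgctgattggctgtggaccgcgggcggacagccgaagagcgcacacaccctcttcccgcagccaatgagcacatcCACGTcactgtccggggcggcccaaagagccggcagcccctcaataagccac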

How the data were processed

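Whole-lens RNA was sequenced in 9 pools (single end, 51 bases). Per the labels and the study's methods, the authors trimmed reads with Trimmomatic 0.36, aligned them with GSNAP to GRCm38, which is based on C57BL/6J and not *FVB/N*, and quantified genes with RSEM 1.3.0. The annotation behind the tables is not given in the sources used here. The authors deposited 1 table per pool with expected counts, TPM and the posterior SD of each count, and 0 columns of per-sample values were left unmapped.

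Expected counts were rounded and tested with edgeR 4.0.16 (quasi-likelihood test, TMM, R 4.3.3) over all 3 lines and 15557 genes that passed the filter on low counts, with Benjamini-Hochberg adjustment over all of them. The cutoff was an adjusted p of at most 0.05 with at least 1.5-fold. CPM are counts scaled to the TMM library size. Total counts per pool were 26959813, 23299676 and 25450719 in *FVB/N*, 23291675, 20670968 and 22205434 in *P0-3.9GFPCre* and 28098059, 24824543 and 22615381 in *Le-Cre*, so low genes such as *Slc2a3* and *Khk* were measured least precisely. P-values set the difference between lines against the spread between these pools of mice, not between single mice. Alternatives were DESeq2 1.42.0, limma 3.58.1 on log2(TPM + 1), other filters and scalings, sums with copies and leaving out each pool. Copies were found as shared 51-base sequences in GENCODE M21 transcripts. Scripts were tested on simulated data.

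All 34 genes are described. From each further list the most abundant gene and the one with the smallest p in each comparison with *FVB/N* are named, apart from 1 gene that is not reported here, and others are named as chosen after their values were seen. The genes and lists were chosen with earlier results of these data known.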

Additional observations from a re-analysis of the deposited data

How the results depend on the processing

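None of the 33 genes passed the cutoff in *Le-Cre* or in *P0-3.9GFPCre* against *FVB/N*, or between the transgenic lines, under any alternative run except without the filter on low counts, where 1 gene (*Gapdh*) passed in *Le-Cre* against *FVB/N* and 1 (*Gapdh*) in *Le-Cre* against *P0-3.9GFPCre*; the cause was not tested. The count of genes lower at an unadjusted p under 0.05 was 9 to 14 in *Le-Cre*, 1 to 5 in *P0-3.9GFPCre* and 4 to 9 between the transgenic lines when 1 pool was left out. In *P0-3.9GFPCre* this count was 3 with all pools, 5 without *FVB/N* replicate 3 and 1 without *P0-3.9GFPCre* replicate 1, and it was 1 with limma and 5 with genes summed with their copies. The median log2 fold change of the 33 genes stayed between -0.25 and -0.13 in *Le-Cre*.

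Directions reversed for genes whose fold change was small or whose copies were summed. *Akr1b3* in *Le-Cre* had 0.018 and was -0.10 with limma and -0.079 to 0.10 without 1 pool. Summed with its copies it was -0.058 in *P0-3.9GFPCre* and 0.19 in *Le-Cre* against *P0-3.9GFPCre*. Without 1 pool, *Eno1* was between -0.14 and 0.013 in *Le-Cre*. In *P0-3.9GFPCre* it was between -0.11 and 0.071 then, and 0.0011 with the Y-linked covariate. *Gapdh* in *P0-3.9GFPCre* was -0.0025 without the filter, -0.043 with the Y-linked covariate, -0.064 summed with copies and -0.070 to 0.093 without 1 pool. *Bnip3l* and *Pgam1* in *P0-3.9GFPCre* were 0.14 and 0.0028 with limma, beside a median of 0.052 over all genes. By edgeR *Bnip3l* was among the hypoxia pathway genes counted as lower in that line at an unadjusted p under 0.05.

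With the replicate number as a block, 12 genes were lower in *Le-Cre*, 2 in *P0-3.9GFPCre* and 6 between the transgenic lines, and 0 passed the cutoff. Pools with the same number did not deviate together (correlation of deviations -0.1043 to 0.1199, mean 0.0299 over 9 pairs), so the number was not taken as pairing.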
